A study of Mus musculus with 12 samples.

Results

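The hippocampus is built from subfields whose principal neurons can be told apart by the genes they express, and 30 such subfield marker genes were followed in the hippocampus of 4-month-old male mice. The 30 symbols were listed as markers of dentate gyrus granule cells and of CA1, CA2 and CA3 pyramidal cells, and all 30 were found among the 24736 symbols of the total RNA table. There were 3 libraries from APP/PS1 mice, which carry the transgenes APPswe and PSEN1dE9, and 3 from wild-type (WT) littermates without them, numbered 1, 2 and 3 for APP/PS1 and 1, 2 and 4 for WT. Which promoters drive the transgenes is not stated in the labels used here. The values are estimated counts from stranded total RNA libraries, which summed to 120958765 to 146904552 per library, and they are given here as CPM, counts scaled to a common library size. TMM scaling, which sets the bulk of genes level between libraries, was applied first. Levels of different genes are not compared, since the values are not corrected for transcript length.

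Signals enter the hippocampus from the entorhinal cortex and reach the dentate granule cells, whose mossy fibres contact CA3 pyramidal cells. CA3 cells project through the Schaffer collaterals to CA1, the main output stage, and CA2 is a small field between them that is known for its part in social memory. The 30 genes were grouped by what is known of them into 8 dentate granule, 8 CA1, 4 CA2 and 4 CA3 markers. The other 6 are shared by several fields or have a less settled field. In the CA1 list, the field of Gpr161, Ndst3 and Pex5l is also less settled. The question put to the 30 genes was whether the balance between subfields differed between the genotypes. It was asked with all 6 libraries and with APP/PS1 replicate 3 left out.

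All 30 hippocampal markers were detected in all 6 libraries, but APP/PS1 replicate 3 also had high counts for genes known from the cerebellum. Cbln3, a secreted protein gene of cerebellar granule cells, had 83638 estimated counts in APP/PS1 replicate 3, only 37 and 57 in replicates 1 and 2 of that genotype, and 106, 67 and 92 in WT replicates 1, 2 and 4. Gabra6, the GABA-A receptor subunit of the same cerebellar cells, had 38654 estimated counts in that library, 4 and 0 in APP/PS1 replicates 1 and 2, and 40, 7 and 5 in the WT libraries. Pcp2, a Purkinje cell gene, had 22242, 55 and 60 estimated counts in APP/PS1 replicates 3, 1 and 2, and 63, 41 and 100 in the WT libraries. Summed over the 4 genes of the cerebellar list, APP/PS1 replicate 3 had 1078 CPM. The other APP/PS1 libraries had 1.05 and 1.16 CPM, and the WT libraries had 1.26 to 2.04 CPM. This high signal was thus confined to APP/PS1 replicate 3, whose subfield values are given below. The part of the cerebellar signal in those values was not tested. In such bulk tissue, fewer cells of a type and less RNA per cell cannot be told apart.

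With all 6 libraries, 0 of the 30 subfield markers passed edgeR's quasi-likelihood test at a Benjamini-Hochberg adjusted p under 0.05, against 1 of 18060 genes tested (0.00554%). At an unadjusted p under 0.05 there were again 0 members, against 3.42% of all genes, while DESeq2 had 0 members past its adjusted threshold and 1, Ndst3, at an unadjusted p under 0.05. The log2 fold change, APP/PS1 over WT, was below 0 for 24 of the 30 members, against 47.7% of all genes, and the median was -0.16 for the members against 0.01 for all genes. Without APP/PS1 replicate 3 the log2 fold change was above 0 for 18 of the 30, against 49.7% of all genes, and the median was 0.07 for the members. Again 0 members passed the adjusted threshold, against 0.0273% of all genes, and 1 member, Trpc6, had an unadjusted p under 0.05, against 4.03% of all genes. The sign of the list's median thus turned when that library was left out.

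APP/PS1 replicate 3 had the lowest CPM of the 6 libraries for 27 of the 30 markers, against 30.3% of all genes. It stood above the other 5 libraries for Ndst3 and Nptx1 and within their range for Tdo2. The median marker stood in this library at 54.2% of its mean in the other 5. Of all genes tested, those between the lower and upper quartile lay at 81.3% to 121% in this library. It was thus low in most markers of all 4 fields relative to its typical gene.

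**Figure D1:**
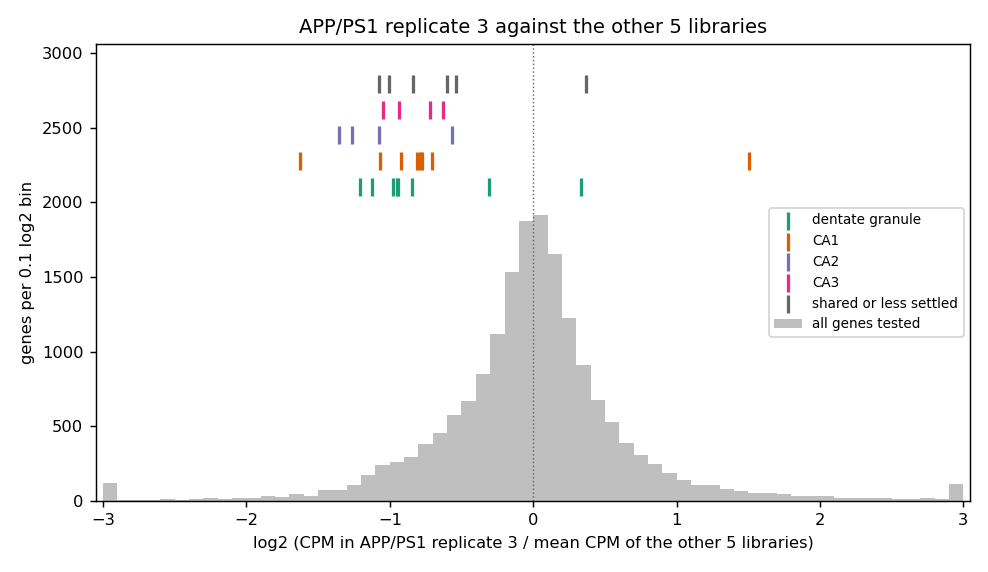
Histogram over 18060 genes of the log2 ratio of CPM in APP/PS1 replicate 3 to the mean CPM of the other 5 libraries, with 1 tick for each of the 30 subfield markers above it, coloured by list; ratios beyond the axis are drawn in the end bins. The bulk of genes centres on 0, and 27 ticks lie to its left, with Tdo2, Nptx1 and Ndst3 to its right.

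By field, the median level in APP/PS1 replicate 3 as a share of the mean of the other 5 libraries was 51.8% for the dentate granule list, 57.3% for CA1, 44.6% for CA2 and 56.5% for CA3. The range was 43.4% to 126% in the dentate granule list and 32.4% to 284% in the CA1 list. It was 39.1% to 67.6% in the CA2 list and 48.4% to 64.7% in the CA3 list. The upper ends of the first pair of ranges were set by Tdo2 and Ndst3, while no CA2 or CA3 member stood above 67.6%. For the 6 shared or less settled markers the median was 60.9% and the range 47.5% to 129%.

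To show what lies in front of these genes, the 250 bases before the annotated start are given for the marker of each field with the lowest share in APP/PS1 replicate 3 among those whose listed start is the outer end of the gene. The same window is given for Tdo2, which had the highest share among such genes. Sequences are from RefSeq, build GRCm38.p6 (the same build as mm10), 5′ to 3′ in the direction of transcription, and capitals mark matches on either strand to CAGNTG (an E-box of the kind that neuronal basic helix-loop-helix factors bind), TATAAA (the TATA box), CCAAT (bound by the factor NF-Y), GGGCGG (an Sp1-type GC box) or TGACGTCA (the cAMP response element). Dsp lies at chr13:38151044-38151293 on the plus strand, Wfs1 at chr5:36988983-36989232 on the minus strand, Necab2 at chr8:119446469-119446718 on the plus strand, Iyd at chr10:3540024-3540273 on the plus strand and Tdo2 at chr3:81975729-81975978 on the minus strand.
Dsp: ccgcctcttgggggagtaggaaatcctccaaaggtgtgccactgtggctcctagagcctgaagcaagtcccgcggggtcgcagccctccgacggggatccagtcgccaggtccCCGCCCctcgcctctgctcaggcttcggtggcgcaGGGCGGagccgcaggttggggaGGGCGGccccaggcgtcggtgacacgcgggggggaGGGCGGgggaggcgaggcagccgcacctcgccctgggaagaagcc
Wfs1: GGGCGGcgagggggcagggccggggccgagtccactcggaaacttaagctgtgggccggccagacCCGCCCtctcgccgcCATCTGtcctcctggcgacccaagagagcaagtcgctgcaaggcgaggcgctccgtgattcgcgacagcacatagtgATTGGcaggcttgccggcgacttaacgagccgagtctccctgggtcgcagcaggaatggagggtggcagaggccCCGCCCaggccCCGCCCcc
Necab2: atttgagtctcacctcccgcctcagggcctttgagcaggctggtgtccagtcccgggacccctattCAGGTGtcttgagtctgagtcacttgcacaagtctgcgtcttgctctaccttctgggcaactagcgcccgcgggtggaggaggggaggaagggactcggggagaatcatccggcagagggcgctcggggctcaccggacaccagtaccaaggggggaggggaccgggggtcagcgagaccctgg
Iyd: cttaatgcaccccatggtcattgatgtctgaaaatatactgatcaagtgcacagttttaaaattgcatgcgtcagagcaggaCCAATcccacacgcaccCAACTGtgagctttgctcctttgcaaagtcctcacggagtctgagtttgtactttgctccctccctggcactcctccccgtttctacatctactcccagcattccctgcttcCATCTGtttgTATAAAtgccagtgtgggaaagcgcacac
Tdo2: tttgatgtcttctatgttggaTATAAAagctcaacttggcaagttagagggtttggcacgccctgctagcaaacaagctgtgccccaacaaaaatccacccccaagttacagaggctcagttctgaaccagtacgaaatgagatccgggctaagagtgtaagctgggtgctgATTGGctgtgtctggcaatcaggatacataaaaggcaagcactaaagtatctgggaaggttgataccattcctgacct

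The windows of Dsp and Wfs1 were GC-rich, at 72.4% and 69.6% GC, with 4 GC box matches each, and that of Necab2 had 64% GC and 0 GC boxes. Those of Iyd and Tdo2 had 48.4% and 46.4% GC and 1 TATAAA match each. Of the 30 markers, 15 had a window at the outer end of the gene. Of these 15, 7 held CAGNTG, 4 held TATAAA, 7 held CCAAT, 8 held GGGCGG and 0 held TGACGTCA. Over 19827 such windows of all genes the shares were 46% for CAGNTG, 14.9% for TATAAA, 34.4% for CCAAT, 26.8% for GGGCGG and 1.43% for TGACGTCA. None of the 5 search strings contains another. The printed windows of Dsp, Wfs1, Necab2 and Iyd, all low in APP/PS1 replicate 3, thus differed in composition. They need not stand for the other markers that were low there.

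Among dentate granule markers, Npnt and C1ql2 had the smallest unadjusted p in the genotype comparison. Npnt, which encodes the extracellular matrix protein nephronectin, had 27.5, 27.8 and 15.0 CPM in APP/PS1 replicates 1, 2 and 3, against 30.2, 29.1 and 29.3 CPM in WT replicates 1, 2 and 4. All 3 APP/PS1 values lay below all 3 WT values, but replicates 1 and 2 were close to WT, and the log2 fold change was -0.34 (SE 0.23, edgeR adjusted p = 0.887) with all libraries and -0.10 without APP/PS1 replicate 3 (edgeR adjusted p = 0.995). Npnt was the 1 member of 30 whose groups did not overlap with 6 libraries, against 10.4% of all genes. C1ql2, a secreted C1q-like protein of the mossy fibre synapse, had 23.6, 20.9 and 10.8 CPM in APP/PS1 and 28.9, 26.0 and 18.9 CPM in WT. Its groups overlapped, through WT replicate 4, and its log2 fold change was -0.41 (SE 0.30, edgeR adjusted p = 0.887). C1ql3, its relative, had 177, 171 and 85.2 CPM in APP/PS1 and 178, 149 and 165 CPM in WT, so its APP/PS1 replicates 1 and 2 lay within the WT range.

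Dsp, which encodes the desmosomal protein desmoplakin, had 87.05, 92.2 and 37.7 CPM in APP/PS1, against 82.2, 87.6 and 86.0 CPM in WT. Its WT libraries differed by a coefficient of variation of 3.27%, and APP/PS1 replicate 3 lay far below them, with APP/PS1 replicate 2 slightly above. Lct, the lactase gene, had 50.1, 44.8 and 24.8 CPM in APP/PS1 and 45.1, 40.9 and 41.2 CPM in WT. Trpc6, a receptor-operated cation channel, had 54.3, 45.8 and 22.6 CPM in APP/PS1 and 44.6, 39.2 and 34.3 CPM in WT. APP/PS1 replicates 1 and 2 thus lay above all WT libraries for Trpc6 and replicate 3 below them. Its log2 fold change was 0.05 (SE 0.31) with all libraries and 0.34 without APP/PS1 replicate 3, with a 95% interval of 0.03 to 0.65, which edgeR's adjusted p over all genes (0.995) did not call.

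Prox1, the homeobox factor that gives granule cells their identity, had 142, 131 and 111 CPM in APP/PS1 and 145, 129.6 and 139.5 CPM in WT. It stood at 80.9% of the other libraries in APP/PS1 replicate 3, a smaller departure than those of the other dentate markers that were low there. Tdo2, tryptophan 2,3-dioxygenase, had 1.68, 2.63 and 2.88 CPM in APP/PS1 and 1.75, 2.29 and 3.06 CPM in WT. Its order between libraries differed from that of the other 7 dentate markers, with the replicates numbered 1 low in both genotypes. Its WT coefficient of variation of 27.8% was the highest of the 30, and its smallest estimated count, 199, was the smallest of any marker.

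**Figure D2:**
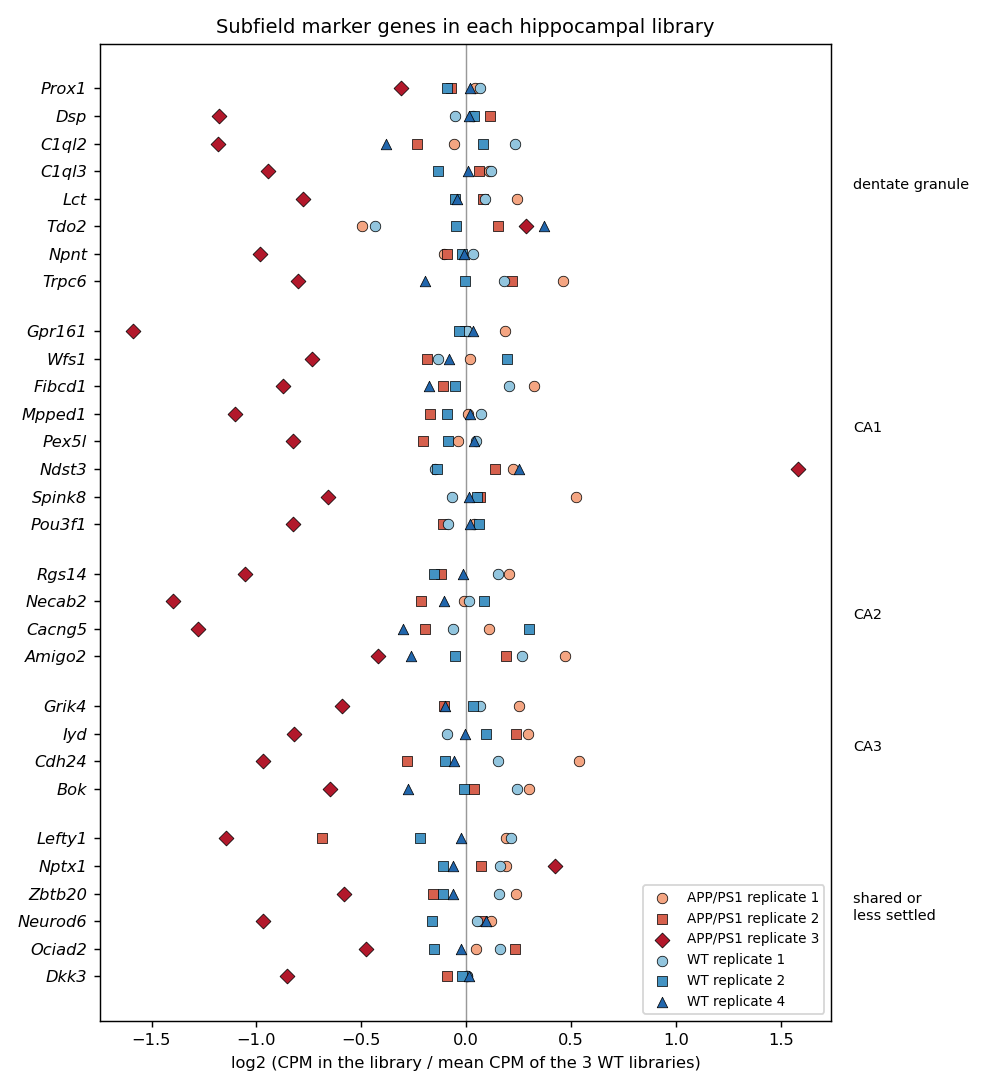
Each of the 30 markers in each of the 6 libraries, as log2 of its CPM over the mean CPM of the 3 WT libraries; red shades are APP/PS1, blue shades WT. The dark red diamonds of APP/PS1 replicate 3 lie left of all other symbols in 27 rows, and in the Ndst3 row far to the right, at 158 CPM against 62.8 CPM in the next library.

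In the CA1 list, Ndst3 and Pex5l had the smallest unadjusted p. Ndst3, an enzyme that deacetylates and sulfates heparan sulfate chains, had 61.7, 58.1 and 158 CPM in APP/PS1, against 47.6, 48.0 and 62.8 CPM in WT. The value of APP/PS1 replicate 3 was 284% of the mean of the other 5, and those of replicates 1 and 2 lay between the 2 lowest WT values and the highest. Its log2 fold change of 0.81 (SE 0.40, 95% interval -0.14 to 1.76, edgeR adjusted p = 0.887) was 0.18 (interval -0.14 to 0.50, edgeR adjusted p = 0.995) without that library. Pex5l, the HCN channel accessory protein also called TRIP8b, had 382, 341 and 222 CPM in APP/PS1 and 406, 369.9 and 403 CPM in WT. Its log2 fold change was -0.32 (SE 0.19, edgeR adjusted p = 0.887), or -0.12 without APP/PS1 replicate 3.

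Gpr161, a G protein-coupled receptor of the primary cilium, had the lowest share of any marker in APP/PS1 replicate 3. It had 150.4, 132 and 44.0 CPM in APP/PS1 and 132, 129.0 and 135 CPM in WT. The other 5 libraries differed by a factor of 1.17 at most, and APP/PS1 replicate 3 stood at 32.4% of their mean. Mpped1, a metallophosphoesterase domain gene, had 214, 189 and 99.3 CPM in APP/PS1 and 224, 199.9 and 216 CPM in WT. Wfs1, the endoplasmic reticulum protein wolframin, had 152, 132 and 90.2 CPM in APP/PS1 and 137, 172 and 142 CPM in WT. For Mpped1 and Wfs1 alike, APP/PS1 replicate 3 was lowest and replicate 2 lay just below the WT range. Fibcd1, a membrane receptor for acetylated sugars, had 137, 101 and 59.6 CPM in APP/PS1 and 126, 105 and 96.6 CPM in WT, with APP/PS1 replicate 1 the highest.

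Spink8, a Kazal-type protease inhibitor gene, had 11.4, 8.33 and 5.04 CPM in APP/PS1 and 7.59, 8.24 and 8.04 CPM in WT. Once APP/PS1 replicate 3 was left out, its APP/PS1 values did not overlap those of WT, with a log2 fold change of 0.31 (95% interval -0.06 to 0.67, edgeR adjusted p = 0.995) that rested mainly on replicate 1. Pou3f1, a POU-domain transcription factor, stood at 56.9% of the other libraries in APP/PS1 replicate 3, and its other 5 values lay within a factor of 1.13.

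The CA2 list had the lowest median share of the 4 fields in APP/PS1 replicate 3. Necab2, a neuronal calcium-binding protein, had 78.1, 67.7 and 29.8 CPM in APP/PS1 and 79.3, 83.3 and 73.0 CPM in WT. Cacng5, an auxiliary subunit of AMPA receptors, had 19.9, 16.1 and 7.597 CPM in APP/PS1 and 17.6, 22.7 and 15.0 CPM in WT. Their log2 fold changes were -0.43 (SE 0.33) for Necab2 and -0.35 (SE 0.35) for Cacng5, with edgeR adjusted p = 0.887 for each, and -0.11 and -0.04 without APP/PS1 replicate 3. Rgs14, a regulator of G protein signalling that limits plasticity in mouse CA2, had 59.3, 47.4 and 24.8 CPM in APP/PS1 and 57.2, 46.2 and 51.0 CPM in WT. Amigo2, a cell adhesion molecule, had 34.4, 28.3 and 18.6 CPM in APP/PS1 and 29.9, 24.0 and 20.7 CPM in WT. It was the CA2 marker least low in APP/PS1 replicate 3, at 67.6% of the other libraries, and WT replicate 4 was its next lowest library.

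Among CA3 markers, Grik4 and Cdh24 had the smallest unadjusted p. Grik4, a kainate receptor subunit, had 72.8, 56.8 and 40.5 CPM in APP/PS1 and 64.0, 62.5 and 57.1 CPM in WT. Cdh24, a cadherin, had 15.4, 8.73 and 5.42 CPM in APP/PS1 and 11.8, 9.88 and 10.2 CPM in WT. The APP/PS1 values of both genes spread more widely than those of WT, with replicate 1 highest and replicate 3 lowest. The log2 fold changes were -0.11 for both (SE 0.20 for Grik4 and 0.35 for Cdh24, edgeR adjusted p = 0.916 and 0.9501). Iyd, iodotyrosine deiodinase, had 6.09, 5.86 and 2.81 CPM in APP/PS1 and 4.66, 5.31 and 4.95 CPM in WT. Bok, a member of the Bcl-2 family, had 19.1, 16.0 and 9.91 CPM in APP/PS1 and 18.4, 15.4 and 12.8 CPM in WT. All 4 CA3 markers had negative log2 fold changes with all libraries, -0.11 to -0.01, and all 4 had positive ones without APP/PS1 replicate 3, 0.08 to 0.26.

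Of the shared or less settled markers, Nptx1 and Lefty1 had the smallest unadjusted p. Nptx1, a neuronal pentraxin that clusters glutamate receptors, had 740.2, 682 and 869 CPM in APP/PS1, against 725, 600.1 and 620.4 CPM in WT. APP/PS1 replicate 3 was its highest library, and the groups overlapped through WT replicate 1 (log2 fold change 0.24, SE 0.12, edgeR adjusted p = 0.887). Lefty1, an antagonist of Nodal signalling, had 5.56, 3.03 and 2.20 CPM in APP/PS1 and 5.65, 4.19 and 4.78 CPM in WT. It varied 1.87-fold among the 5 libraries other than APP/PS1 replicate 3, the most of any marker. Neurod6, a basic helix-loop-helix factor of pyramidal neurons, had 262, 254 and 123 CPM in APP/PS1 and 251, 216 and 258 CPM in WT. Dkk3, a secreted Dickkopf family protein, had 298, 279 and 164 CPM in APP/PS1 and 298, 293 and 300.4 CPM in WT, and its WT coefficient of variation of 1.22% was the lowest of the 30. Zbtb20, a transcription factor of hippocampal development, and Ociad2 stood at 65.8% and 69.0% of the other libraries in APP/PS1 replicate 3.

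**Figure D3:**
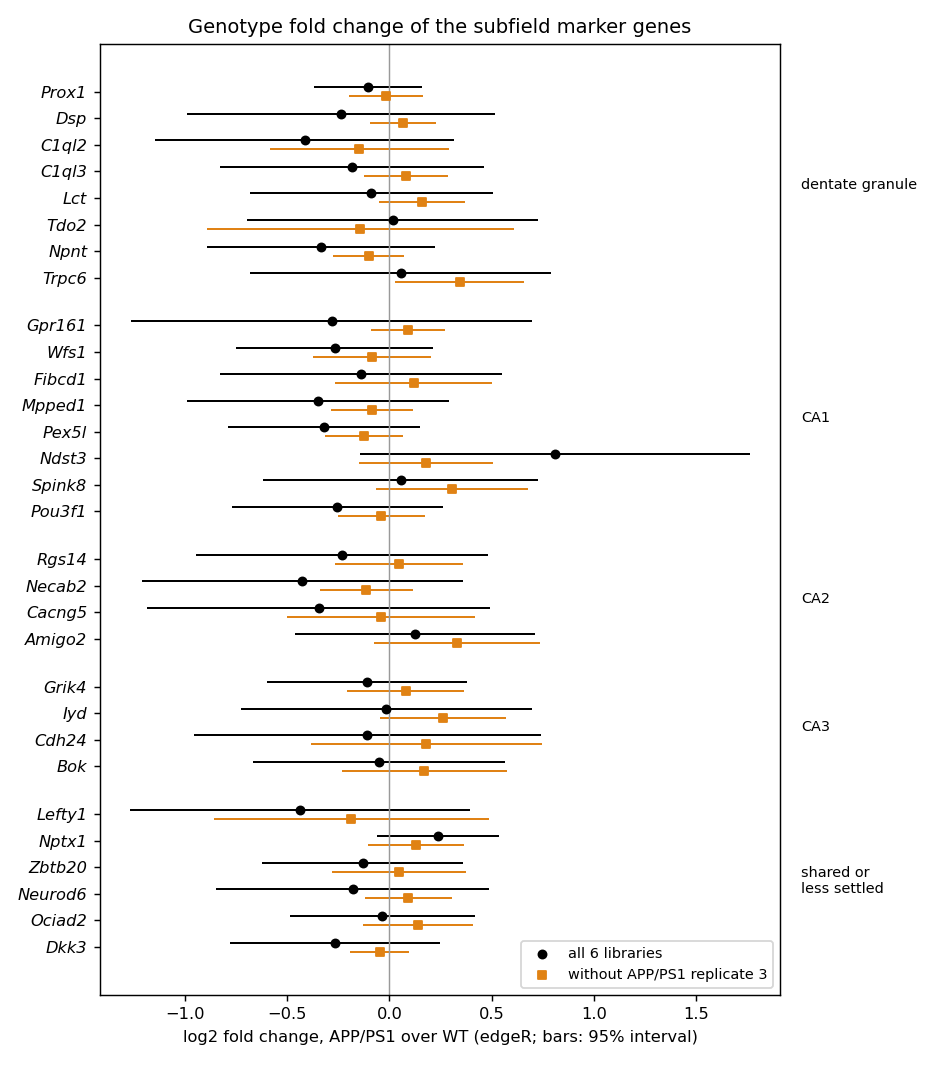
Log2 fold change, APP/PS1 over WT, of each marker from edgeR with its 95% interval, with all 6 libraries (black circles) and without APP/PS1 replicate 3 (orange squares). All 30 intervals with 6 libraries contain 0, and all but that of Trpc6 do so without APP/PS1 replicate 3, where the intervals are narrower.

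The precision of the genotype comparison depended largely on APP/PS1 replicate 3. The median width of the 95% interval over the 30 markers was 1.30 log2 units with all libraries and 0.57 without APP/PS1 replicate 3. Without it, the interval lay between -1 and 1 for all 30 markers and between -0.5 and 0.5 for 21 of them. The WT libraries had a median coefficient of variation of 9.44% over the markers, against 8.43% over all genes tested. Without APP/PS1 replicate 3 the groups did not overlap for 4 of the 30, Npnt with lower and Trpc6, Spink8 and Iyd with higher APP/PS1 values, against 19.4% of all genes.

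The balance between fields was then taken within each library, where a difference common to all markers cancels. For each library the log2 CPM of each marker was expressed relative to its mean over the 6 libraries and averaged over the list. For dentate granule markers the score was 0.15, 0.15 and -0.62 in the APP/PS1 libraries and 0.15, 0.09 and 0.09 in the WT libraries. The CA1 score was 0.25, 0.02 and -0.54 in APP/PS1 and 0.08, 0.08 and 0.11 in WT. The CA2 score was 0.35, 0.07 and -0.88 in APP/PS1 and 0.25, 0.21 and -0.01 in WT. The CA3 score was 0.42, 0.05 and -0.68 in APP/PS1 and 0.17, 0.08 and -0.03 in WT. All 4 scores were lowest in APP/PS1 replicate 3, and those of CA1, CA2 and CA3 were highest in APP/PS1 replicate 1.

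In size, the differences between scores were smaller than the scores of APP/PS1 replicate 3, which were -0.54 to -0.88. The largest difference was 0.34, for CA1 minus CA2 in that same library. Dentate granule minus CA1 was -0.11, 0.13 and -0.08 in APP/PS1 and 0.07, 0.01 and -0.02 in WT, with APP/PS1 replicate 3 among the other libraries. That place depended on the summary: with the shorter lists of the best known markers APP/PS1 replicate 3 stood at 0.205, above the other 5 (-0.27 to 0.10), and with the median over members at -0.12, below them (-0.0835 to 0.15). Dentate granule minus CA3 was -0.27, 0.10 and 0.06 in APP/PS1 and -0.02, 0.01 and 0.12 in WT. CA1 minus CA3 was -0.17, -0.03 and 0.15 in APP/PS1 and -0.09, 0.00 and 0.14 in WT. For both of these balances to CA3, APP/PS1 replicate 1 was the lowest library, and for CA1 minus CA3 APP/PS1 replicate 3 lay beside WT replicate 4. With the shorter lists APP/PS1 replicate 3 stood at 0.13 for dentate granule minus CA3, against -0.26 to 0.11 in the other 5, and at -0.0745 for CA1 minus CA3, against -0.11 to 0.0923. CA1 minus CA2 was -0.10, -0.06 and 0.34 in APP/PS1 and -0.17, -0.13 and 0.12 in WT, with APP/PS1 replicate 3 above all others. With the shorter lists, which leave out Ndst3, that library's CA1 minus CA2 value was 0.10, against -0.14 to 0.06 in the other 5. With the median over members it was 0.30, against -0.15 to 0.08 in the other 5.

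The group means of the balances, which are descriptions without a test, were close. Dentate granule minus CA1 averaged -0.02 ± 0.13 in APP/PS1 and 0.02 ± 0.04 in WT (SD, n = 3 each). Dentate granule minus CA3 averaged -0.04 ± 0.21 in APP/PS1 and 0.04 ± 0.08 in WT. CA1 minus CA3 averaged -0.02 ± 0.16 in APP/PS1 and 0.02 ± 0.12 in WT, and CA1 minus CA2 averaged 0.06 ± 0.24 in APP/PS1 and -0.06 ± 0.16 in WT. With all libraries, each difference between genotypes was smaller than the SD among the APP/PS1 libraries. Without APP/PS1 replicate 3, the APP/PS1 minus WT differences were -0.01 for dentate granule minus CA1, -0.13 for dentate granule minus CA3, -0.12 for CA1 minus CA3 and -0.02 for CA1 minus CA2. In size, that of CA1 minus CA3 then exceeded the SD of the APP/PS1 libraries (0.099, n = 2) and was close to that of WT (0.116, n = 3). For the other balances it remained smaller than the SD of the APP/PS1 libraries.

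**Figure D4:**
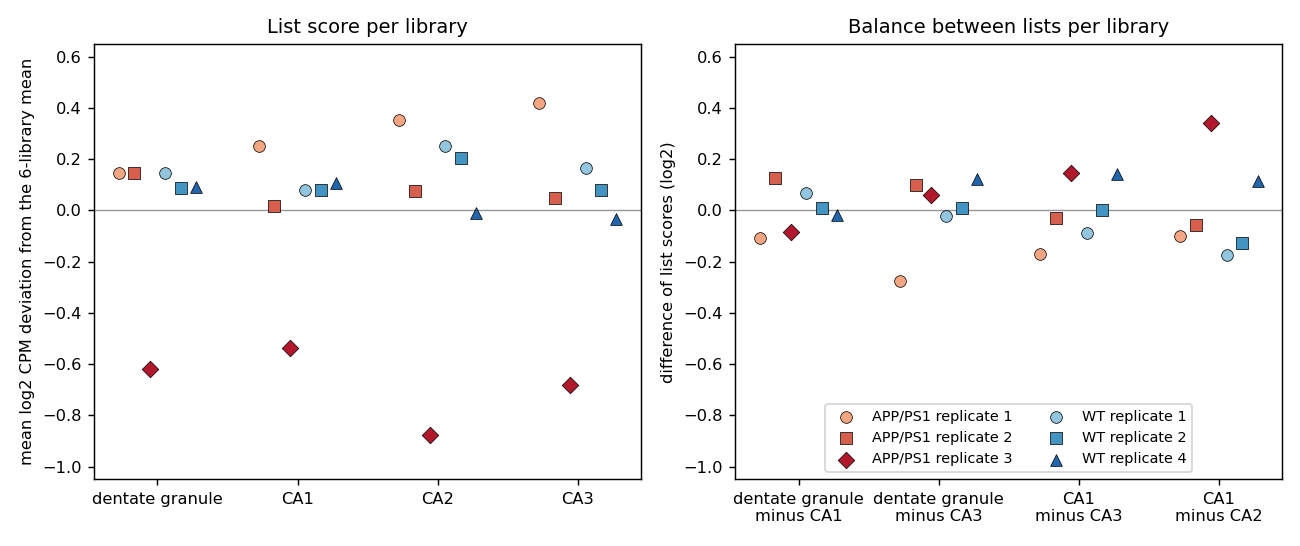
Left, score of each field in each library, the mean over its markers of the log2 CPM deviation from the 6-library mean; right, the difference between pairs of scores on the same scale; red shades are APP/PS1, blue shades WT. APP/PS1 replicate 3 lies at -0.54 to -0.88 on the left, and on the right within or close to the other libraries except for CA1 minus CA2, where it stands at 0.34.

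APP/PS1 replicates 1 and 2 also differed from each other. APP/PS1 replicate 1 was the highest of the 5 libraries other than APP/PS1 replicate 3 for 14 of the 30 markers, against 21.2% of all genes, and for 6 of the 8 CA2 and CA3 markers. APP/PS1 replicate 2 was the lowest of those 5 for 10 of the 30, against 22.4% of all genes. Scored on those 5 libraries, the CA3 list gave 0.28 for APP/PS1 replicate 1 and -0.09 for replicate 2, against 0.03, -0.05 and -0.17 for the WT libraries. The dentate granule list stood at 0.02 in both APP/PS1 libraries and at 0.02, -0.03 and -0.03 in WT, the field whose score varied least.

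Further genes of each field, listed from what is known of them, were read in the same fit. Of 10 other dentate granule genes, 0 passed over all genes. The log2 fold change was above 0 for 5 of them (median 0.004), and APP/PS1 replicate 3 was the lowest library for 5 and the highest for 3. Plk5, a kinase family gene, had 6.98, 7.05 and 17.1 CPM in APP/PS1 and 5.81, 4.999 and 5.27 CPM in WT (log2 fold change 0.95, edgeR adjusted p = 0.887). All 3 APP/PS1 values of Plk5 lay above WT, with replicate 3 far above the rest. Il16, a cytokine gene, had 59.5, 45.6 and 196 CPM in APP/PS1 and 53.7, 44.2 and 41.7 CPM in WT (log2 fold change 1.11, or 0.17 with APP/PS1 replicate 3 left out, edgeR adjusted p = 0.887 and 0.995). Akap7, an anchoring protein of protein kinase A, was the other dentate gene highest in APP/PS1 replicate 3, at 79.8 CPM against 36.2 to 38.8 CPM in the other 5.

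For the other CA fields, 0 of 3 CA1, 0 of 6 CA2 and 0 of 6 CA3 genes passed. Man1a, a mannosidase, had 76.2, 76.2 and 48.7 CPM in APP/PS1 and 78.8, 79.9 and 68.6 CPM in WT. Man1a and Nov, of the CA1 list, were both lowest in APP/PS1 replicate 3. In the CA2 genes the share of the other libraries in APP/PS1 replicate 3 was 19.9% to 231%, with Stard5 at 12.4, 11.2 and 26.5 CPM in APP/PS1 and 10.6, 11.7 and 11.2 CPM in WT, and Ptpn5, the phosphatase STEP, at 140.0, 126 and 58.3 CPM in APP/PS1 and 138, 160.5 and 140.6 CPM in WT. Pcp4, a CA2 marker that Purkinje cells of the cerebellum also express, had 35.0, 50.4 and 99.3 CPM in APP/PS1 and 44.9, 48.7 and 45.8 CPM in WT. In the CA3 genes the same share was 47.6% to 133%, with Prss35, a protease-like gene, at 6.52, 6.81 and 4.81 CPM in APP/PS1 and 8.04, 7.63 and 7.52 CPM in WT, and Coch, cochlin, at 6.07, 10.3 and 9.73 CPM in APP/PS1 and 6.14, 6.12 and 8.01 CPM in WT. Genes high in APP/PS1 replicate 3 were thus found beside low ones within the further dentate granule and CA2 lists.

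Of 4 mossy cell genes and 3 subiculum genes, 0 passed. Calb2, calretinin, which mossy cells share with cerebellar granule cells, had 44.3, 42.03 and 201 CPM in APP/PS1 and 47.4, 42.9 and 33.6 CPM in WT, while Ajap1 had 48.4, 40.3 and 28.6 CPM in APP/PS1 and 46.3, 45.4 and 42.7 CPM in WT. Rxfp1, a relaxin receptor of the subiculum list, had 14.0, 19.4 and 9.15 CPM in APP/PS1 and 19.1, 25.1 and 32.9 CPM in WT. Its groups overlapped narrowly, with a log2 fold change of -0.86 (edgeR adjusted p = 0.887) and -0.63 without APP/PS1 replicate 3. Nts, neurotensin, had 2.59, 6.98 and 3.07 CPM in APP/PS1 and 2.85, 7.53 and 4.68 CPM in WT, a spread within each genotype wider than the difference between them.

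Markers of other tissue and cell types gave these values beside the subfield scores. In APP/PS1 replicate 3, the median gene stood at 92.9% of the other 5 libraries for the pan-neuronal list and 104% for astrocytes. It was 111% for endothelium, 79.9% for myelin and 62.2% for microglia. Among regional lists it was 45.2% for subiculum, 62.4% for neocortex, 72.4% for striatum and 75.9% for thalamus. For mossy cells it was 80.5%, for interneurons 100% and for choroid plexus 113%. Several of these medians hide genes far apart in that library. The range was 59.8% to 479% for mossy cells and 37.2% to 1047% for interneurons. It was 29.4% to 323% for striatum and 39.6% to 190% for neocortex. The summed neocortex list was 335, 385 and 252 CPM in APP/PS1 and 461, 486 and 593 CPM in WT, with all 9 genes at negative log2 fold changes and 0 past the threshold. All 9 were also negative without APP/PS1 replicate 3 (median -0.30, against -0.001 for all genes), again with 0 past the threshold. Mef2c, a gene of that list which other neurons also express, alone had 101, 121 and 70.6 CPM in APP/PS1 and 203, 206 and 259.7 CPM in WT, much of the gap between those sums. The summed choroid plexus list was 1788, 4018 and 2409 CPM in APP/PS1 and 1492, 1796 and 1686 CPM in WT. APP/PS1 replicate 2, high in choroid plexus genes, had the highest dentate granule minus CA1 balance of the 6 libraries, at 0.13. Its other balances were 0.10 for dentate granule minus CA3, -0.03 for CA1 minus CA3 and -0.06 for CA1 minus CA2. The part of these differences in the subfield values was not tested.

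Some values could hold reads of a neighbour. The 30 genes lie on 15 chromosomes, and 6 of them, C1ql3, Trpc6, Gpr161, Pex5l, Amigo2 and Zbtb20, overlap another gene of the table in their annotated span. The strand setting of the counting is not stated, so reads of overlapping partners cannot be told apart for these 6.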

How the data were processed

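The estimated counts per gene symbol were used as deposited by the authors, as whole numbers. HISAT2, StringTie, DESeq and the build mm10 appear in the submitters' processing notes, with no role or version. How the counts were made and filtered is not given in the sources used here. Low values were uneven, with 1817 cells at 4 and 897 at 3, so 1 fragment may stand for several estimated counts and the depth in fragments is uncertain. Columns were matched to libraries by title, and the small RNA table, with 6 columns, was not used.

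The genotypes were compared over the whole table with edgeR 4.0.16 under R 4.3.3, using its quasi-likelihood test, with TMM factors, edgeR's default expression filter, no covariate and Benjamini-Hochberg adjustment at 0.05. The filter kept 18060 genes, and 18302 without APP/PS1 replicate 3. All 30 members passed it in both fits. SE was derived from the log2 fold change and the F statistic, and 95% intervals from the SE. CPM uses the TMM-adjusted library sizes. Scores were means of log2 CPM (prior count 2) and got no test, since the members were chosen. The spread between libraries sets the precision here, with a biological coefficient of variation of 26.5%, or 19.7% without APP/PS1 replicate 3. DESeq2 1.42.0 and limma 3.58.1 were among the alternatives.

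The members and lists were chosen with earlier results of these data known. Values in every library were given for members with a log2 fold change of at least 0.5 in size and for the 2 members of each list with the smallest unadjusted p, and of each further list of hippocampal genes for the 2 with the smallest p. The same rule covered the lists of other brain regions and cell types, which apart from the cerebellar one and Mef2c are given here as sums and medians only. A gene that the rule took is not reported here. Other genes given library by library were chosen after their values were seen. All 30 members matched RefSeq by symbol. Of 32851 RefSeq promoter windows, 19827 begin at the outer end of a gene.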

Additional observations from a re-analysis of the deposited data

How the results depend on the processing

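The count of members past the threshold was 0 under all 14 alternatives tried: other size factors, other count filters, DESeq2, limma-voom, counts divided by 4, the replicate block and each library left out; at an unadjusted p under 0.05 it was 0 to 4. The count of all genes past it was 1 with all libraries, 24 with DESeq2, 2 with the replicate number as a block, and 0 to 6 with 1 library left out. It was 0 without WT replicate 1 or WT replicate 2, with 371 and 345 genes at an unadjusted edgeR p under 0.05. It was 6, 5 and 4 without APP/PS1 replicate 1, APP/PS1 replicate 3 or WT replicate 4.

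The signs of members' log2 fold changes depended on single libraries. With 1 library left out they ran from -0.451 to 0.0679 for Dsp, -0.354 to 0.0816 for C1ql3, -0.28 to 0.16 for Lct, -0.155 to 0.245 for Tdo2 and -0.20 to 0.34 for Trpc6. In the CA1 list they ran from -0.59 to 0.0901 for Gpr161, -0.44 to 0.12 for Fibcd1 and -0.25 to 0.31 for Spink8. They ran from -0.51 to 0.0469 for Rgs14, -0.0815 to 0.33 for Amigo2, -0.33 to 0.0789 for Grik4, -0.195 to 0.262 for Iyd, -0.58 to 0.18 for Cdh24 and -0.26 to 0.17 for Bok. They ran from -0.35 to 0.0483 for Zbtb20, -0.35 to 0.0926 for Neurod6 and -0.19 to 0.14 for Ociad2. For Tdo2 the value was -0.0227 with upper-quartile factors, and with limma-voom it was -0.0365 for Trpc6 and -0.0397 for Spink8; the cause was not tested.

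Replicate numbers 1 and 2 occur in both genotypes, but no label says that they mark a shared litter or day, and deviations of same-numbered libraries from their group means correlated at 0.09 and -0.04. The block fit draws its fold change from those 2 pairs alone, so it leaves out APP/PS1 replicate 3 by construction. With the block the log2 fold change was 0.0790 for Dsp, 0.0943 for C1ql3, 0.14 for Lct, 0.11 for Gpr161, 0.0317 for Fibcd1, 0.0431 for Rgs14, 0.0244 for Grik4, 0.26 for Iyd, 0.11 for Cdh24, 0.0533 for Bok, 0.0152 for Zbtb20, 0.15 for Neurod6 and 0.14 for Ociad2, all opposite in sign to the fit without it.

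Under the alternatives that kept all libraries, the genotype differences in balance moved by less than each balance's pooled SD between libraries (0.096 to 0.204). With a library left out, so small a move follows from the arithmetic of means and SD, so it shows no stability there. The sign of the differences was not stable. The alternatives were the median over members, shorter lists, summed CPM, a prior count of 0.5, DESeq2 size factors and each library left out. The differences ran from -0.115 to 0.03 for dentate granule minus CA1, -0.14 to 0.04 for dentate granule minus CA3, -0.12 to 0.04 for CA1 minus CA3 and -0.02 to 0.21 for CA1 minus CA2. The difference itself exceeded the pooled SD for dentate granule minus CA1 without APP/PS1 replicate 2 (-0.115, SD 0.096) and for CA1 minus CA2 without WT replicate 4 (0.212, SD 0.204).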
